A study of Caenorhabditis elegans with 66 samples.

Results

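The piRNA loci on chromosomes II and III of Caenorhabditis elegans were followed across 7 genotypes and 2 ages. Members were all loci that the deposited table of normalized values places on chromosome II or III, with 4 loci left out by name. This gave 465 loci out of 13211 with a position, of which 49 are annotated 21ur loci (27 on chromosome II and 22 on chromosome III). The other 416 are listed under names starting in novel_21ur (241 on II and 175 on III). How the novel_21ur loci were found is not given in the sources used here. For comparison, chromosome IV holds 11311 annotated and 843 novel_21ur loci.

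Small RNA was sequenced from whole worms at 72 h (gravid adults) and 48 h (L4 larvae), after treatment of the RNA with a 5' polyphosphatase. Set A holds snpc-1.2(-), snpc-1.3(-) and wildtype, titled N2 in every set. Set B holds the double mutant snpc-1.2(-); snpc-1.3(-), the single mutants prg-1(-), mut-16(-) and hrde-1(-), and wildtype. Of the set RT, the wildtype libraries were used. Each group of set, genotype and age had 3 libraries, so 54 libraries in 18 groups were compared, and every mutant was compared with wild type from the same set at the same age. The labels give no separate culture or animal for each replicate, so p-values measure only the spread between these libraries, which may be technical. The tables list piRNA loci alone, so the mutated genes themselves were not checked here, and in whole worms fewer germ cells and less small RNA per cell cannot be told apart.

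In C. elegans most piRNA genes lie on chromosome IV, each with its own small promoter, and the SNAPc transcription complex, to which the SNPC-1 family belongs, acts in their transcription. The mature piRNA is bound by PRG-1, the Piwi protein of the worm, and is unstable without it. A piRNA that pairs with a transcript can start the making of secondary small interfering RNAs antisense to that transcript. These are made by RNA-dependent RNA polymerases in foci organised by MUT-16 and act in the nucleus with the Argonaute HRDE-1. For a locus on chromosome II or III the genotypes thus pose the question which of these proteins its small RNA needs.

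The loci on which the results turn are shown with their deposited sequence, the first base (the 5' end) in capitals. All are 21 bases long, and the coordinates are those of the deposited table, whose annotated loci stand at the WBcel235 annotation in 11448 of 11460 cases.

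The first 3 differ in what their counts need, the next 3 are examples of 1 mutant each, and the last 3 are abundant annotated loci.
novel_21ur-0464: Tatccatcgtggcctagtggc
novel_21ur-0305: Tcatctgtggctgtaagacga
novel_21ur-0335: Ttttactcaattgtaggtact
novel_21ur-0463: Ttatcggtcttttcaacgtgt
novel_21ur-0446: Tttcttagatggagattgttg
novel_21ur-0375: Tttaagtgtgacttctgcttt
21ur-10824: Gttttgaataaagtttgctga
21ur-9360: Gttgaatcccggcactgaagt
21ur-10456: Tagagtatgacttagcgcgtt

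The locus novel_21ur-0464 lies at chrIII:2031377-2031397 on the minus strand with no annotated gene over it. The locus novel_21ur-0305 (chrII:7122366-7122386, minus strand) lies in a sense exon of F10E7.11 and antisense to an exon of F10E7.2. The locus novel_21ur-0335 (chrII:9381213-9381233, plus strand) lies antisense to an exon of the pseudogene WBGene00007376 and in a sense exon of srh-48, a chemoreceptor gene of the srh family by its name. The locus novel_21ur-0463 (chrIII:1823662-1823682, plus strand) is antisense to an exon of pvf-1, the worm gene of the platelet-derived and vascular endothelial growth factor family. The locus novel_21ur-0446 (chrII:14983019-14983039, plus strand) is antisense to Y53F4B.5 outside its exons, and novel_21ur-0375 (chrII:13123692-13123712, minus strand) is antisense to an exon of bath-45, a gene of the BTB and MATH domain family.

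Among the annotated loci, 21ur-10824 (chrIII:2295350-2295370, minus strand) lies in a sense exon of Y54F10BM.9 and overlaps 21ur-11898. The locus 21ur-9360 (chrIII:9616286-9616306, plus strand) is antisense to an exon of hcp-3, which encodes the centromeric histone of the worm. The locus 21ur-10456 (chrII:5308103-5308123, plus strand) has no annotated gene over it.

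Most novel_21ur loci on II and III lay antisense to exons. With each locus in 1 class, and a sense exon going before an antisense one, 255 of the 416 novel_21ur members (61.3%) were antisense to an exon, 42 lay in a sense exon, 101 had no gene over them and the rest lay within a gene outside its exons. Counted without that order, 261 were antisense to an exon. By the same classes 12.57% of the novel_21ur loci of chromosome IV were antisense to an exon, and 277 of 489 (56.65%) on the other chromosomes. In 45 novel_21ur members (10.8%) the 5' end lay within 100 bases of the start of a coding transcript on the same strand. All 416 novel_21ur members began with T, as did the other 1335 novel_21ur loci of the table, so the first base does not separate them. Of the 49 annotated members, 41 began with T, 7 with G and 1 with C, and 15 lay in a sense exon, 13 antisense to an exon and 16 outside genes. Their G starts include both 21ur-10824 and 21ur-9360. No test was made of these shares, and neighbouring loci are not independent, since 73 pairs of neighbouring members on a strand share bases.

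Counts were low. The annotated members had a median of 56 counts summed over all 54 libraries and the novel_21ur members a median of 267.5. All 465 had at least 1 count, but 27 of 49 annotated and 391 of 416 novel_21ur members passed the filter on low counts that precedes the test, and the other 47 were not tested. A locus that is high in 1 group alone passes this filter more easily. The total of all piRNA counts lay between 3167 and 10864 in the prg-1 libraries and between 16101 and 34162 in the double mutant, against 700341 to 977482 in wild type of set B. Depth over all small RNAs is not given in the sources used here, so a higher share of the piRNA counts and a lower total cannot be told apart. One library stood apart: wild type replicate 3 of set RT at 72 h had 9912 piRNA counts, and its Spearman correlation with replicates 1 and 2 across piRNAs was 0.399 and 0.435, against 0.853 between those 2 (each pair shares the same list of loci).

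The members made up a small part of the wild-type piRNA pool and a large part of what remained in prg-1 and in the double mutant. In prg-1 the novel_21ur members held 19.5% ± 1.16 of piRNA counts at 72 h and 15.5% ± 0.820 at 48 h, against 0.544% ± 0.0609 and 0.346% ± 0.0215 in wild type of set B at those ages (SD, n = 3 libraries each). In the double mutant they held 10.7% ± 0.793 at 72 h and 12.3% ± 0.386 at 48 h. In snpc-1.2 at 72 h they held 3.83%, 3.69% and 2.48%, a mean of 3.33% ± 0.742 (SD, n = 3), against 0.597% ± 0.0396 in wild type of set A. The libraries of these mutants did not overlap with their wild type. The shares in mut-16 were 0.238% ± 0.0439 at 72 h and 0.195% ± 0.0229 at 48 h, below every wild-type library of set B, and those in hrde-1 were 0.386% ± 0.0564 and 0.276% ± 0.00949. The annotated members held 1.92% ± 0.284 in prg-1 at 72 h, against 0.0204% ± 0.00176 in wild type.

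**Figure D1:**
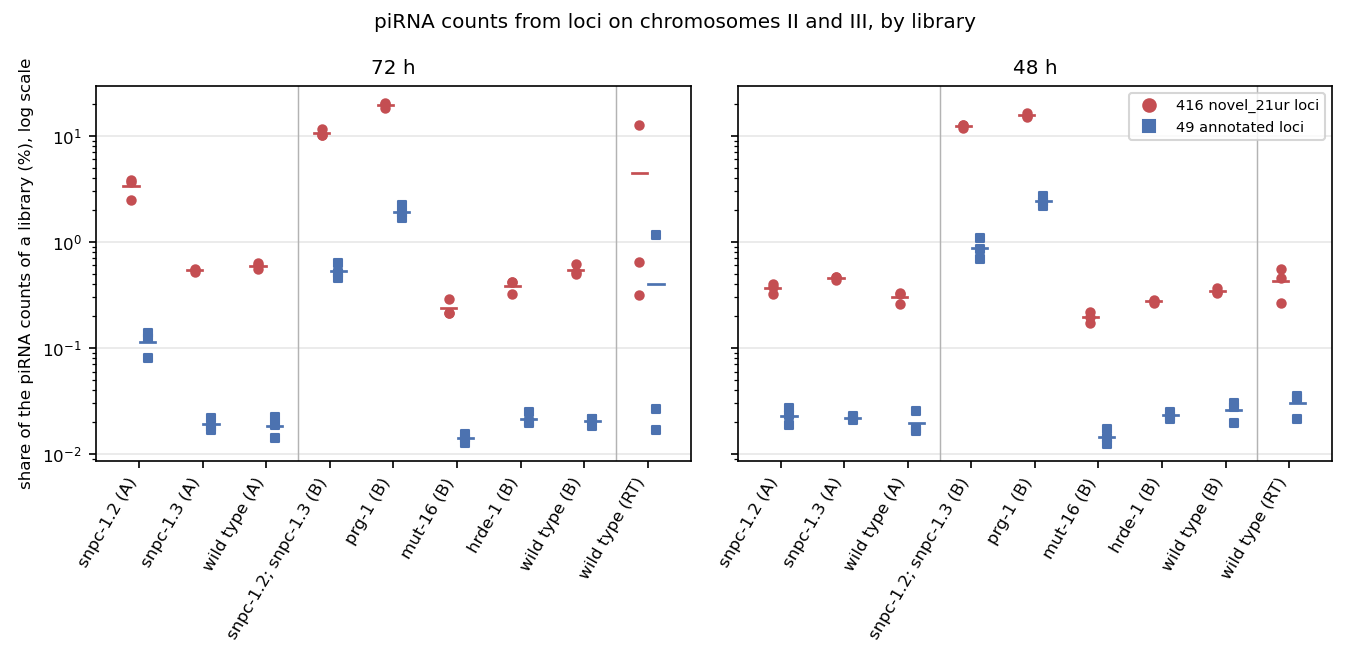
Share of each library's piRNA counts (%, log scale) held by the 416 novel_21ur loci (red circles) and the 49 annotated loci (blue squares) of chromosomes II and III, at 72 h (left) and 48 h (right), with the mean of 3 libraries as a bar and the set in brackets. The shares in prg-1 and the double mutant stand far above wild type, and 1 RT wild-type library at 72 h stands apart from the other 2.

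Raw counts were compared locus by locus, and since depth is unknown, kept and low refer here to deposited counts alone. For the 269 members with at least 30 counts over the 6 wild-type libraries of set B (262 novel_21ur, 7 annotated), the counts over the 6 libraries of a mutant were set against those of wild type, with no correction for depth. The limits that follow were chosen after the values were seen, so the numbers of loci in each group are a description. In prg-1, 137 of the 269 kept less than 5% of their wild-type counts, of which 115 had 0 counts in all 6 libraries, while 93 kept more than 30%. In mut-16, 164 kept less than 30%, while 73 exceeded their wild-type counts. Of the annotated loci of chromosome IV that pass the same minimum, 99.76% kept less than 5% in prg-1 and 96.27% exceeded wild type in mut-16. Loci are called here by their counts in the mutants, and whether the label piRNA holds for the members kept in prg-1 was not tested. At the limits, novel_21ur-0401 kept 4.545% and novel_21ur-0235 5.882% in prg-1, novel_21ur-0219 kept 29.33% and novel_21ur-0280 kept 30.0%. In mut-16 novel_21ur-0459 kept 29.41% and novel_21ur-0257 30.23%.

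**Figure D2:**
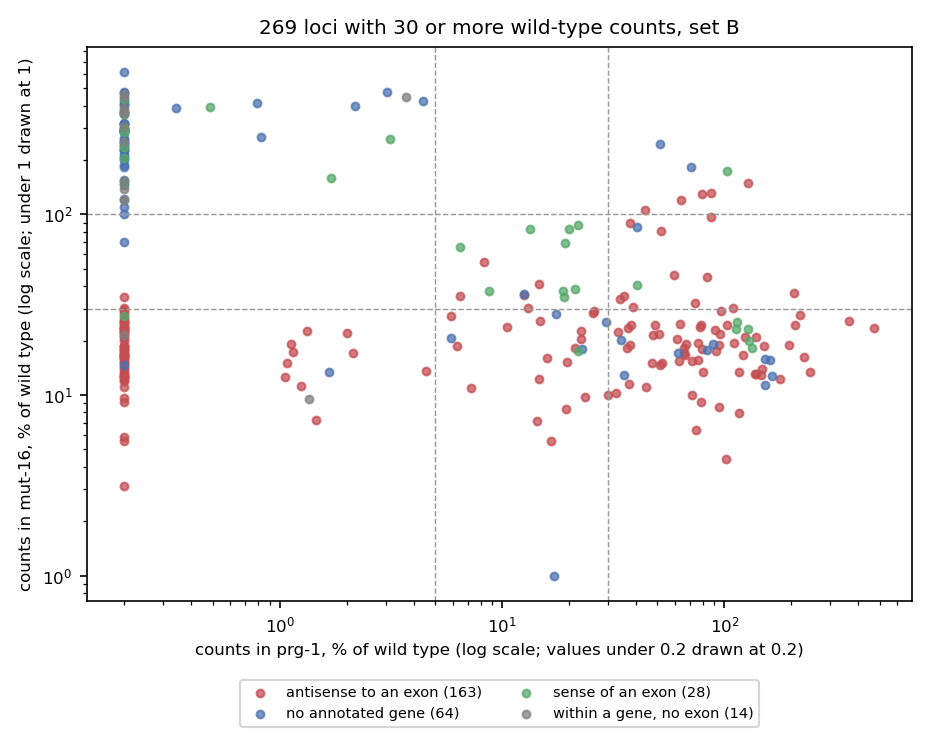
Counts in prg-1 (x axis) and in mut-16 (y axis) as a percentage of wild-type counts, set B, both ages summed, log scales, for 269 loci coloured by the annotation over them. Dashed lines mark 5% and 30% in prg-1 and 30% and 100% in mut-16, and loci antisense to an exon lie mostly below 30% in mut-16 on either side of the plot.

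By their counts in prg-1 and mut-16 as a percentage of wild type, most of these loci fell into 3 groups. The wild-type libraries of set B thus helped to choose the groups. Comparisons of hrde-1 and the double mutant with those libraries are not independent of that choice, and its part in them was not tested. The first, 65 loci low in prg-1 and above wild type in mut-16, made up 24.16% of the members, against 96.04% of the annotated and 82.36% of the novel_21ur loci of chromosome IV with the same counts. The second, 68 loci, was low in prg-1 and below 30% in mut-16. It made up 25.28% of the members, against 0.0974% of the annotated and 4.85% of the novel_21ur loci of chromosome IV. The third, 72 loci, kept more than 30% in prg-1 and was below 30% in mut-16. It made up 26.77% of the members, against 0% and 5.18% of those loci of chromosome IV. Loci of the chromosomes other than II, III and IV were not put through these limits. Of the first group 42 loci had no gene over them, 1 was antisense to an exon and 20 lay within 100 bases of a same-strand transcript start. Of the second 63 were antisense to an exon and of the third 58. With at least 60 wild-type counts as the minimum, the groups held 26, 29 and 37 loci. Chromosome II gave 30, 56 and 35 loci of the 3 groups out of 157, and chromosome III gave 35, 12 and 37 out of 112.

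The first group (low in prg-1, above wild type in mut-16) had 2, 2 and 2 summed counts in prg-1 at 72 h, against 685, 807 and 692 in wild type. In mut-16 at 72 h it had 3582, 3231 and 1773 counts. The mut-16 libraries also had the highest totals of piRNA counts (up to 2276260), and the part of depth in this excess was not tested. By the edgeR tests described below, on a scale that centres on most piRNAs (TMM), 9 of the 65 loci were called higher at 72 h and 5 at 48 h. Of all piRNAs 1.02% and 0.435% were called higher, and the group was chosen from these same libraries. The double mutant at 72 h had 855, 1116 and 818 counts of this group, which overlaps wild type, and 48 of the 65 loci kept more than 50% of their counts over both ages. In hrde-1 at 72 h the counts were 816, 1059 and 809.

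The second group (low in both) had 3, 4 and 3 counts in prg-1 at 72 h and 82, 154 and 337 in mut-16, against 993, 1095 and 836 in wild type. In mut-16 replicate 3 gave the highest value at both ages. At 72 h the double mutant had 136, 168 and 142 counts, below every wild-type library, and 43 of the 68 loci kept less than 10% over both ages. In hrde-1 it had 598, 743 and 640 counts at 72 h, also below wild type.

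The third group (kept in prg-1, low in mut-16) had 1032, 1554 and 1568 counts in prg-1 at 72 h, against 1241, 1459 and 1129 in wild type, and these overlap. In mut-16 it had 111, 223 and 480 counts, which are low by the choice of the group. In hrde-1 it had 473, 462 and 663 counts, with every library below wild type. The double mutant had 1099, 1343 and 1084 counts, which overlap with wild type. The 3 groups share each library's depth, so their order within a library does not depend on the scaling between libraries.

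**Figure D3:**
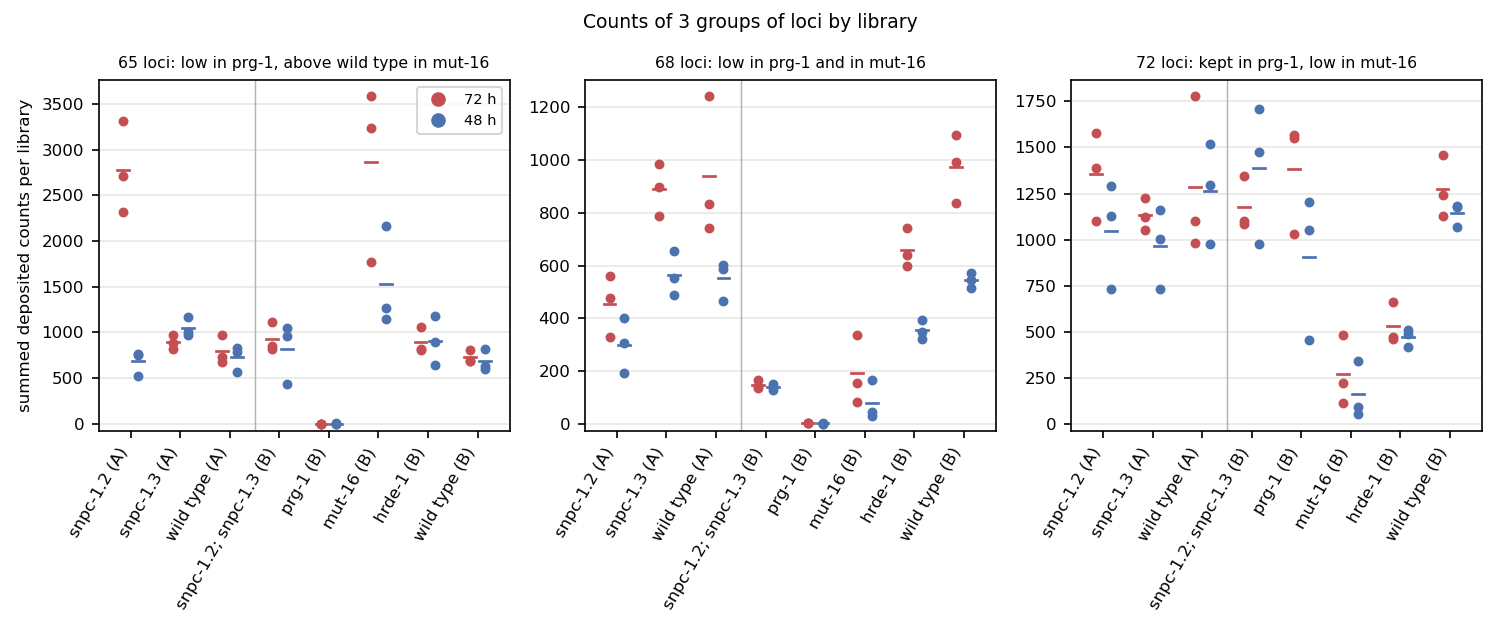
Summed deposited counts per library of the 3 groups of loci, 72 h in red and 48 h in blue, with the mean of 3 libraries as a bar and the set in brackets. The groups were defined from the prg-1, mut-16 and wild-type libraries of set B. The second group alone of the 3 stands far below wild type in the double mutant.

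Tests of single loci used the quasi-likelihood F test of edgeR across all 8512 piRNAs that passed the filter, and the threshold for a call was an adjusted p of 0.05 by the method of Benjamini and Hochberg. Beside the count of members called stands the background, the share of all piRNAs tested that passed the same threshold. Fold changes are on the log2 scale with standard errors, and counts in sentences are deposited counts in replicates 1, 2 and 3. Loci named for a comparison were chosen among those called, at least 2-fold changed and without overlap in share of piRNA counts. For age this held within sets A and B. A lack of overlap in that comparison thus follows from the choice and is no further support. For prg-1 and the double mutant values are relative to the total of piRNA counts, and for the other genotypes to the TMM scale, which centres on most piRNAs.

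**Figure D4:**
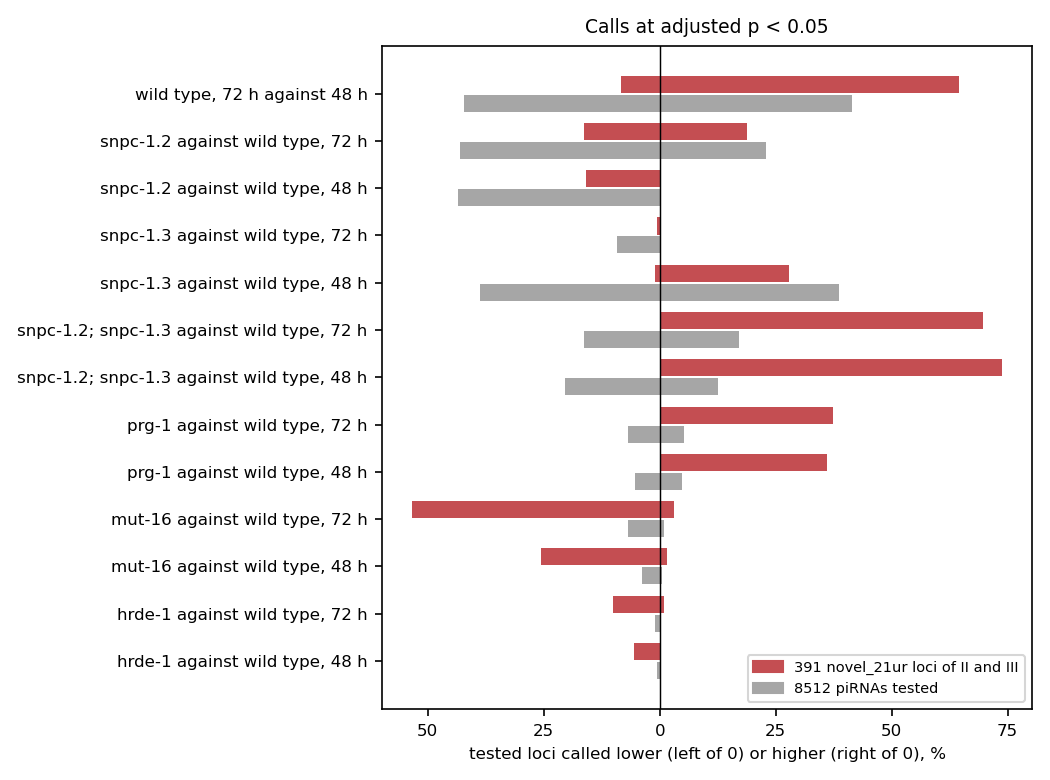
Share of loci called higher (right of 0) or lower (left of 0) in each comparison, for the 391 tested novel_21ur loci of chromosomes II and III (red) and for all 8512 piRNAs tested (grey). In mut-16 at 72 h 53.45% of the novel_21ur loci were called lower, against 6.81% of all piRNAs.

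In wild type the novel_21ur members were mostly higher at 72 h than at 48 h. Of 391 novel_21ur members 252 were called higher and 33 lower at 72 h, and of 27 annotated members 9 were higher and 3 lower, where 83.8% of all piRNAs tested were called (41.4% higher and 42.3% lower). The median log2 difference was 1.25 over the novel_21ur members, 0.44 over the annotated and 0.07 over all piRNAs. With equal library sizes, which moved the median of all piRNAs to -0.75, 124 members were higher and 60 lower (background 66.9%). Without the RT library that stood apart, and with the dispersion estimated anew, 244 members were higher and 43 lower (background 82.6%), and in sets A and B alone 316 and 35 (background 88.7%). The share of the novel_21ur members was 0.597% ± 0.0396 at 72 h against 0.303% ± 0.0384 at 48 h in set A, and 0.544% ± 0.0609 against 0.346% ± 0.0215 in set B, without overlap. In set RT the libraries at 72 h without replicate 3 had 0.314% and 0.652%, which overlap with the range of 0.266% to 0.553% at 48 h.

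The annotated locus 21ur-9360 had 76, 69 and 43 counts at 72 h, against 15, 10 and 6 at 48 h, in wild type of set A, and 47, 105 and 47 against 30, 15 and 16 in set B. It rose by 2.19 ± 0.26 (edgeR adjusted p = 7.2e-13), and by the naming rule the ages do not overlap within set A or B. In set RT it had 26, 16 and 5 counts at 72 h, the 5 in the library that stood apart, against 22, 17 and 17 at 48 h, which overlap. The locus novel_21ur-0305 had 63, 87 and 53 counts at 72 h against 15, 16 and 26 at 48 h in set A, 56, 78 and 59 against 26, 19 and 30 in set B, and 12, 25 and 0 against 1, 5 and 8 in set RT. It rose by 2.37 ± 0.33 (edgeR adjusted p = 1.0e-08), and the ages overlap in set RT alone.

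Fewer loci went the other way. The locus 21ur-10456 had 1, 0 and 2 counts at 72 h, against 26, 17 and 20 at 48 h, in wild type of set A, and 0, 2 and 1 against 13, 10 and 10 in set B (log2 difference -2.39 ± 0.57, edgeR adjusted p = 6.0e-05). In set RT it had 2, 0 and 0 counts against 7, 1 and 1, which overlap. The locus 21ur-14900, in a sense exon of ZK637.4, had 0, 0 and 0 counts at 72 h against 7, 20 and 10 at 48 h in set A and 0, 0 and 4 against 18, 18 and 22 in set B. In set RT it had 0, 0 and 3 counts against 1, 1 and 0, and so does not show the difference there. Its edgeR adjusted p was 0.0087, and the call was lost when RT replicate 1 or 2 or set A replicate 2 at 72 h was left out. The locus novel_21ur-0593, whose 5' end lies 2 bases past the annotated start of C44B9.2, had 0, 0 and 0 counts at 72 h against 13, 17 and 7 at 48 h in set A, with 1, 0 and 1 against 35, 3 and 19 in set B (edgeR adjusted p = 0.0058). In set RT it had 4, 1 and 31 counts against 50, 74 and 59, the 31 in the library that stood apart.

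In snpc-1.2 some members were higher and others lower than in wild type of set A. At 72 h 74 novel_21ur members were called higher and 64 lower of 391, and 5 annotated members higher of 27, where 66.2% of all piRNAs were called (23.0% higher and 43.1% lower). On this TMM scale the share of members called lay below that of all piRNAs in each direction. These counts are therefore no result about the members. On the scale of total piRNA counts the members split into 256 higher and 33 lower, where 80.5% of all piRNAs were called. With equal library sizes the split was 66 and 58 (background 53.9%), and with DESeq2 it was 227 and 31 (background 76.4%). The median of all piRNAs lay at -0.42 on the TMM scale and at 1.51 on the scale of total piRNA counts, and the snpc-1.2 libraries had 154481, 132848 and 275171 piRNA counts at 72 h, against 610946, 941418 and 633570 in wild type.

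Of the 65 loci low in prg-1 and above wild type in mut-16, 51 were called higher and 1 lower in snpc-1.2 at 72 h. On the scale of total counts, with equal library sizes and with DESeq2, 57, 40 and 58 were higher. Of all piRNAs 23.0% were called higher, and 49.9%, 14.6% and 45.8% with those settings. The summed counts of these 65 loci were 2712, 2321 and 3313 in snpc-1.2, against 731, 970 and 676 in wild type, without overlap. Of the 64 tested loci low in both prg-1 and mut-16, 25 were called lower, where 43.1% of all piRNAs were. On the scale of total counts 28 were higher and 16 lower, where 49.9% and 30.6% of all piRNAs were. These calls lie near or below the background and are no result about this group. The group's summed counts were 476, 328 and 560 in snpc-1.2 against 832, 1241 and 742 in wild type. Of the 72 loci kept in prg-1, 3 were higher and 7 lower, and on the scale of total counts 61 higher and 2 lower. The groups were defined in set B and these values come from set A. The median log2 differences of the 3 groups were 1.80, -0.88 and 0.11 on the TMM scale and 3.80, 1.06 and 2.09 on the scale of total counts, a change of scale that moves all loci nearly alike.

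The locus novel_21ur-0464 had 332, 220 and 360 counts in snpc-1.2 at 72 h, against 53, 69 and 38 in wild type. This was a rise of 2.53 ± 0.65 (edgeR adjusted p = 0.00092) with no overlap, as the naming rule asks. It had 186, 102 and 107 counts in mut-16 at 48 h and 0, 0 and 0 in prg-1, against 60, 31 and 55 in wild type of set B. The annotated locus 21ur-13828, outside genes, had 10, 18 and 18 counts against 2, 4 and 3 (2.34 ± 0.70, edgeR adjusted p = 0.0019), and 21ur-13301, whose 5' end is 1 base past the start of dnj-23, a DnaJ family gene, had 8, 13 and 21 against 1, 2 and 4 (2.49 ± 0.70, edgeR adjusted p = 0.00095).

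Among the losses, novel_21ur-0305 had 7, 4 and 2 counts in snpc-1.2 at 72 h, against 63, 87 and 53 in wild type, and fell by 3.90 ± 0.61 (edgeR adjusted p = 2.2e-07). It also had 0, 1 and 1 counts in the double mutant at 72 h against 56, 78 and 59, and 116, 99 and 139 in snpc-1.3.

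At 48 h fewer members were called in snpc-1.2 than at 72 h. Of the novel_21ur members 1 was called higher and 62 lower, and 1 annotated member was lower, where 43.6% of all piRNAs were called (0.0587% higher and 43.5% lower). On the scale of total counts 6 members were higher and 26 lower (background 29.2%), and with DESeq2 15 and 23 (background 30.6%). The median was -0.64 over the novel_21ur members and -0.83 over all piRNAs, and the share of members called lower lay below that of the whole table, so this count is no result about the members. The locus novel_21ur-0375, antisense to bath-45, had 2, 0 and 1 counts in snpc-1.2, against 33, 26 and 24 in wild type, and fell by 4.79 ± 0.77 (edgeR adjusted p = 4.4e-08). The 1 novel_21ur member called higher was novel_21ur-0578, antisense to an exon of T16H12.2, with 30, 20 and 21 counts in snpc-1.2 against 2, 2 and 1 in wild type (3.31 ± 0.85, edgeR adjusted p = 0.00059). It also had 71, 54 and 99 counts in the double mutant at 48 h and 23, 13 and 29 in prg-1, against 5, 0 and 2 in wild type of set B.

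In snpc-1.3 most calls among members were higher at 48 h, and few members were called at 72 h. At 48 h 109 novel_21ur members were called higher and 4 lower, and 7 annotated members higher and 1 lower, where 77.3% of all piRNAs were called (38.6% higher and 38.7% lower). For annotated and novel_21ur members alike, the share called lay below that of all piRNAs in each direction. The number called is therefore no result about the members. The split depends on the scale, with 59 members higher and 9 lower on that of total counts (background 73.2%), 6 and 11 with equal library sizes (background 46.3%) and 29 and 8 with DESeq2 (background 67.9%). Of the group of 65 loci, 44 were higher and 3 lower on the TMM scale, and 1 and 3 with equal library sizes. Without snpc-1.3 replicate 2 or 3 the members called numbered 206 and 190, against 121 with all libraries.

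The loci named by the rule among the higher calls had few counts or depended on the scale. The locus novel_21ur-0464 had 106, 68 and 104 counts in snpc-1.3 at 48 h, against 31, 57 and 54 in wild type, without overlap (2.02 ± 0.66, edgeR adjusted p = 0.0062), and lost its call on the scale of total counts, with equal library sizes, with limma and with DESeq2. The annotated locus 21ur-12364, antisense to an exon of mlc-7, a myosin light chain gene by its name, had 9, 7 and 7 counts against 3, 6 and 3, and 21ur-14704, in a sense exon of C15F1.5, had 1, 6 and 1 against 1, 1 and 0.

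Other loci were listed at 0 in snpc-1.3. The locus 21ur-10456 had 0, 0 and 0 counts in snpc-1.3 at 48 h, against 26, 17 and 20 in wild type, at least 9.97-fold lower by a floor of 3 counts over the group (edgeR adjusted p = 2.1e-06). It also had 0 counts in all 6 libraries of prg-1 and all 6 of the double mutant, and 45, 17 and 15 in mut-16 at 48 h.

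The locus novel_21ur-0463, antisense to pvf-1, had 0 counts in all 6 snpc-1.3 libraries. Wild type had 25, 9 and 16 counts at 48 h and 18, 21 and 15 at 72 h, so the locus was at least 7.91-fold lower at 48 h and 16.8-fold lower at 72 h (edgeR adjusted p = 0.00030 and 0.00014). In the double mutant, which also carries snpc-1.3(-), it had 9, 18 and 17 counts at 72 h, against 11, 17 and 20 in wild type of set B. The counts in the double mutant and its wild type overlap, and the 2 sets were not compared with each other by a test.

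At 72 h in snpc-1.3, 2 novel_21ur members were called lower, and of the annotated members edgeR called 0 (1 at an unadjusted p under 0.05, and 0 by DESeq2). The background was 9.39% (0.129% higher and 9.26% lower), and 9.05% with DESeq2. The share of members called lay below the background, so this count is no result about the members.

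In the double mutant the members kept much of their counts beside a low total. Relative to the total of piRNA counts, 289 of 391 novel_21ur and 21 of 27 annotated members were called higher at 48 h, and 273 and 17 at 72 h, with a background of 32.8% at 48 h (12.5% up, 20.4% down) and of 33.6% at 72 h (17.2% up, 16.4% down). With equal library sizes, which compares the counts themselves, 12 members were higher and 104 lower at 72 h (background 75.1%), and 20 and 71 at 48 h (background 87.4%). The locus novel_21ur-0464 had 245, 299 and 314 counts at 72 h, against 56, 45 and 45 in wild type, and so was higher also in counts (7.36 ± 0.99 relative to the total, edgeR adjusted p = 1.5e-07). The locus 21ur-10824 had 21, 6 and 36 counts against 46, 16 and 33, which overlap. It was called higher relative to the total (4.22 ± 1.15, edgeR adjusted p = 0.0034), and with equal library sizes its log2 difference was -0.59.

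In prg-1 the same scale gave 146 novel_21ur and 10 annotated members higher at 72 h, and 141 and 8 at 48 h, with a background of 12.1% at 72 h (5.26% up, 6.86% down) and of 10.1% at 48 h (4.88% up, 5.25% down). At 72 h 6 members were higher and 243 lower with equal library sizes (background 83.9%). At 0 counts in totals of 3167 to 10864 a loss of a rare locus was not always detectable relative to the total. The members kept in prg-1 at 72 h include 21ur-10824, with 45, 41 and 52 counts against 46, 16 and 33 in wild type, and 21ur-9360, with 45, 153 and 124 against 47, 105 and 47. Both pairs of groups overlap in counts at 72 h. At 48 h 21ur-10824 had 147, 71 and 182 counts against 64, 122 and 122, which overlap, while 21ur-9360 had 1, 6 and 4 against 30, 15 and 16, below every wild-type library. The locus novel_21ur-0335 had 67, 179 and 154 counts in prg-1 at 72 h, against 73, 118 and 77, and 64, 29 and 112 at 48 h, against 50, 61 and 91.

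In mut-16 most calls were losses. At 72 h 209 novel_21ur members were called lower and 12 higher, and 1 annotated member went each way, where 7.84% of all piRNAs were called (1.02% higher and 6.81% lower). At 48 h 100 novel_21ur and 3 annotated members were lower and 6 novel_21ur members higher, where 4.21% were called (0.435% higher and 3.77% lower). The median log2 difference at 72 h was -2.65 over the novel_21ur members, -0.33 over the annotated and 0.19 over all piRNAs. With equal library sizes, which moved the median of all piRNAs to 1.26, 46 members were higher and 90 lower at 72 h (background 7.23%). At 48 h the members called numbered 39 without mut-16 replicate 1 and 63 without replicate 2, against 109. These loci include many used to define the groups above, and no more is read from that overlap.

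The locus novel_21ur-0227, outside genes, had 20, 48 and 130 counts in mut-16 at 72 h, against 257, 316 and 191 in wild type, and fell by 2.77 ± 0.71 (edgeR adjusted p = 0.0077). At the other end, 21ur-15401, in a sense exon of the guanylyl cyclase gene gcy-3, had 30, 22 and 19 counts against 1, 1 and 2 (2.98 ± 0.80, edgeR adjusted p = 0.0044), and novel_21ur-0348 had 176, 127 and 68 against 22, 31 and 30 (1.05 ± 0.33, edgeR adjusted p = 0.029). In both loci every mut-16 library was above every wild-type library, as the naming rule asks. The locus 21ur-8285, antisense to the noncoding gene linc-11, fell to 1, 0 and 1 counts in mut-16 at 72 h, against 5, 11 and 13 (log2 difference -4.48 ± 0.90, edgeR adjusted p = 3.8e-05). The locus novel_21ur-0514, in a sense exon of F35G12.7, had 91, 55 and 49 counts in mut-16 at 48 h against 18, 18 and 24 (1.27 ± 0.38, edgeR adjusted p = 0.030).

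At 48 h 21ur-10824 had 3, 11 and 34 counts in mut-16 against 64, 122 and 122 (log2 difference -3.00 ± 0.88, edgeR adjusted p = 0.038), and the overlapping 21ur-11898 had 0, 0 and 1 against 8, 8 and 4 (-3.95 ± 1.31, edgeR adjusted p = 0.020). These 2 loci share bases and are not independent.

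In hrde-1 fewer members were called. At 72 h 39 novel_21ur members were lower and 4 higher, where 1.41% of all piRNAs were called (0.364% higher and 1.05% lower). At 48 h 22 were lower and 1 higher, where 0.811% were called (0.223% higher and 0.587% lower). Of the annotated members edgeR called 0 at either age (2 and 1 at an unadjusted p under 0.05 at 72 h and 48 h), as did DESeq2, with a background of 0.787% at 72 h and 0.623% at 48 h. Of the 72 loci kept in prg-1 and low in mut-16, 21 were lower in hrde-1 at 72 h, and of the 64 tested loci low in both, 9 were lower and 3 higher. At 72 h the members called numbered 9 without hrde-1 replicate 2, against 43, and at 48 h 8 without hrde-1 replicate 1, 13 without hrde-1 replicate 2 and 14 without wild type replicate 3, against 23.

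Among the losses, the naming rule gave novel_21ur-0335, antisense to the pseudogene WBGene00007376, with 13, 11 and 4 counts in hrde-1 at 72 h, against 73, 118 and 77 in wild type (log2 difference -3.27 ± 0.66, edgeR adjusted p = 0.0032). At 48 h it had 1, 1 and 3 counts against 50, 61 and 91 (-5.21 ± 0.88, edgeR adjusted p = 0.00036). The locus novel_21ur-0446 went the other way, with 111, 137 and 92 counts in hrde-1 at 72 h, against 32, 21 and 23 in wild type (2.10 ± 0.36, edgeR adjusted p = 0.00012). It had 1, 1 and 3 counts in mut-16 and 0, 1 and 0 in prg-1 at 72 h. All 3 hrde-1 libraries exceeded all wild-type libraries at both ages, as the naming rule asks.

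**Figure D5:**
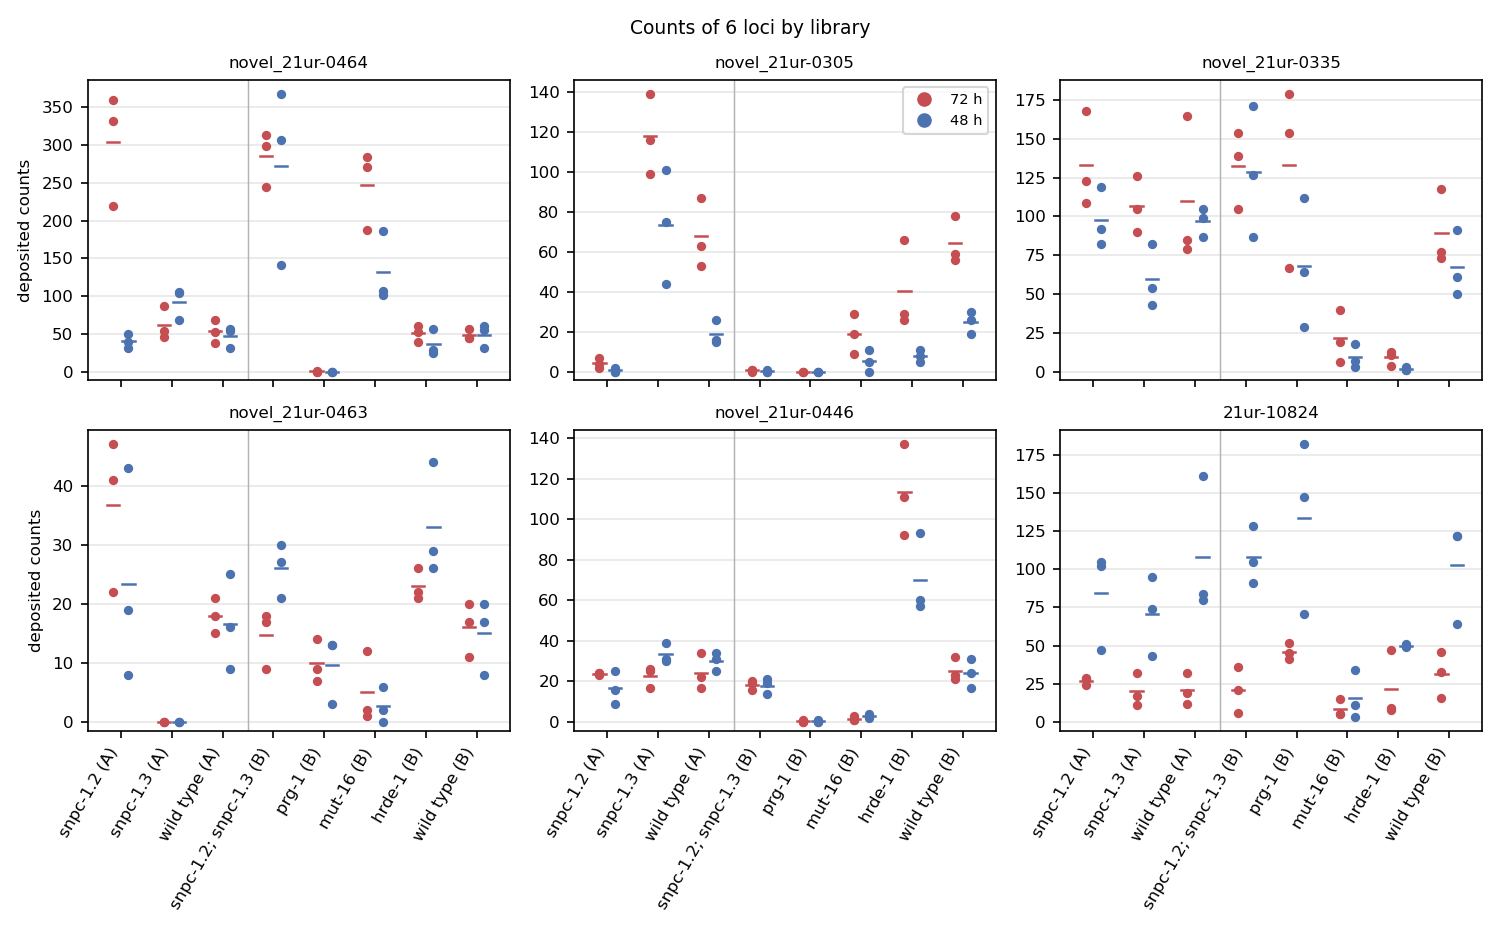
Deposited counts of 6 loci in each library, 72 h in red and 48 h in blue, with the mean of 3 libraries as a bar and the set in brackets. Each locus has its own pattern, such as 0 counts of novel_21ur-0463 in all 6 snpc-1.3 libraries and high counts of novel_21ur-0446 in hrde-1.

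Several genes lie antisense to many novel_21ur members. The 261 novel_21ur members antisense to an exon lie over 109 genes, and 11 genes with at least 7 such loci each, chosen by that number, held 101 of them. These loci often share bases, so their summed counts are given as 1 value per gene and library. Not all 11 genes are described, and those that follow are examples picked after their counts were seen.

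The 19 loci antisense to W03H9.2 span chrII:14143087-14143607. They had 2, 0 and 0 counts in prg-1 at 72 h and 9, 11 and 7 in the double mutant, against 164, 226 and 168 in wild type. In hrde-1 they had 68, 80 and 56 counts and in mut-16 20, 27 and 75. In snpc-1.2 at 72 h they had 179, 120 and 230 counts, against 185, 313 and 136 in wild type of set A, which overlap.

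The 7 loci antisense to bath-45 had 11, 7 and 10 counts in snpc-1.2 at 72 h, against 108, 152 and 87 in wild type of set A, and 97, 99 and 131 in snpc-1.3. They had 2, 0 and 0 in the double mutant and 0 in every prg-1 library, against 123, 166 and 90 in wild type of set B. Every library with snpc-1.2(-), alone or with snpc-1.3(-), was below its wild type, and 4 of the 5 tested loci were called lower in snpc-1.2 at 72 h (2 on the scale of total counts), where 43.1% of all piRNAs were called lower (30.6% on the scale of total counts).

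The 7 loci antisense to saeg-2, a zinc finger gene named as a suppressor of the kinase EGL-4, had another order. They had 1, 10 and 2 counts in snpc-1.2 at 72 h, against 93, 90 and 71 in wild type of set A, and all 7 were called lower, against the same 43.1% of all piRNAs. On the scale of total counts and with DESeq2 2 were called lower, against 30.6% of all piRNAs on either. In the double mutant they had 83, 93 and 83 counts, against 61, 95 and 72 in wild type of set B, which overlap. In hrde-1 they had 7, 8 and 6 counts, in mut-16 6, 18 and 35, and in prg-1 34, 95 and 85. The few counts in snpc-1.2 were not seen in the double mutant, and the 2 mutants belong to different sets, so set and genotype cannot be told apart here.

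The 7 loci antisense to zfp-1, a PHD zinc finger gene of the worm, had 0 counts in every prg-1 library and 3, 7 and 18 in mut-16 at 72 h, against 33, 44 and 51 in wild type. The double mutant had 19, 25 and 17 counts of them at 72 h, below each wild-type library, and in hrde-1 31, 34 and 37. In contrast the 9 loci antisense to W04B5.8 had 82, 110 and 108 counts in prg-1 at 72 h against 69, 55 and 70 in wild type, all higher, and 4, 4 and 15 in mut-16. At 48 h they had 121, 49 and 112 counts in prg-1 against 106, 79 and 77, which overlap.

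Some genes differed by age. The 12 loci antisense to E01G4.5 had 103, 111 and 63 counts at 72 h against 3, 3 and 3 at 48 h in wild type of set A, and 146, 93 and 134 against 5, 8 and 9 in set B. In set RT they had 45, 39 and 1 counts against 2, 4 and 3, the 1 in the library that stood apart. All 12 were called higher at 72 h, where 41.4% of all piRNAs were called higher. At 72 h they had 3, 12 and 20 counts in prg-1, below every wild-type library, and 83, 89 and 103 in the double mutant, which overlap with wild type.

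The effect of snpc-1.2 on members differed between the ages in 41 novel_21ur loci, 40 with a higher and 1 with a lower effect at 72 h than at 48 h, where 31.0% of all piRNAs were called in this test of the difference (22.1% with a higher and 8.85% with a lower effect). The effect of snpc-1.3 differed in 33 novel_21ur loci, in each with a lower effect at 72 h, where 39.0% were called (12.9% higher and 26.1% lower). Of the annotated members edgeR called 0 in either test (3 and 1 at an unadjusted p under 0.05, and 1 and 0 by DESeq2, with backgrounds of 29.9% and 30.2%). Both counts move with the scale: with equal library sizes they were 0 and 1, with backgrounds of 0% and 9.61%.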

How the data were processed

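The authors deposited counts per piRNA locus and batch-corrected log2 CPM values, and both tables are theirs. Per the submitters' processing notes, which give no role or order, Trimmomatic 0.39, Bowtie 1.1.1, HTSeq, edgeR and the build WBcel235 were used. Per the file headers, 1 wild-type library of set B (72 h, replicate 3) was resequenced. Of 66 samples 54 were used; 12 mutant samples of set RT were not analysed here, and 12 columns with no sample were left out.

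Members and lists were chosen with earlier results of these data known. In edgeR 4.0.16 (R 4.3.3) 1 quasi-likelihood fit held all 54 libraries with a mean per set, genotype and age, after a filter (minimum count 10, minimum total 15) that 8512 piRNAs passed. Scaling was TMM, and the sum of piRNA counts for prg-1 and the double mutant. Adjusted p-values are Benjamini-Hochberg over all 8512. Fold changes are shrunken by edgeR, and the standard error is the unshrunken log2 change divided by the root of F. The libraries' piRNA totals, 3167 to 2276260 counts, limit the precision, and floors cover counting error only. Alternatives were other scalings, no filter, the compared groups alone, a replicate block, limma 3.58.1 on the deposited log2 CPM, DESeq2 1.42.0 and leaving out each library, which kept the dispersion trend of all libraries. The fits were tried on simulated counts for some comparisons, with the compared groups alone, wild-type proportions and some loci changed. These simulations did not hold the loss of most piRNA counts seen in prg-1 and the double mutant, so they do not test the scaling there.

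Loci were named by 2 rules. The first took the 4 annotated and 4 novel_21ur members with the highest mean share in the wild type of sets A and B. The second took, per comparison and direction, the 2 annotated and 1 novel_21ur member with the highest mean count among those called, at least 2-fold changed and without overlap. The groups by prg-1 and mut-16 counts and the genes with 7 or more antisense loci were chosen after their values were seen. Same-numbered libraries deviated together (every correlation over 0.1) in 3 of 12 comparisons, all at 48 h: snpc-1.2 (0.11 to 0.354), mut-16 (0.117 to 0.307) and hrde-1 (0.157 to 0.243).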

Additional observations from a re-analysis of the deposited data

Results flagged for a closer look

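The effect of snpc-1.2 differed between 72 h and 48 h by a test of the difference itself (edgeR, adjusted over all 8512 piRNAs) in 41 members. The test called 31.0% of all piRNAs, a larger share than of the 418 members tested, so the count is no result about the members. Among the named loci the log2 effect was higher at 72 h than at 48 h by 2.94 in novel_21ur-0348 (adjusted p = 2.4e-05 by edgeR), by 3.10 in novel_21ur-0464 (adjusted p = 0.011 by edgeR) and by 2.18 in novel_21ur-0514 (adjusted p = 0.0017 by edgeR). At 72 h novel_21ur-0348 had 149, 108 and 156 counts in snpc-1.2 against 21, 34 and 23 in wild type, and at 48 h 20, 18 and 15 against 22, 19 and 18.

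The effect of snpc-1.3 differed between the ages in 33 members, where 39.0% of all piRNAs were called, again a larger share than among the members. The difference of its log2 effects, 72 h minus 48 h, was -2.07 in novel_21ur-0305 (adjusted p = 0.0092 by edgeR), -1.41 in novel_21ur-0348 (adjusted p = 0.025 by edgeR) and -1.57 in novel_21ur-0375 (adjusted p = 0.033 by edgeR). With equal library sizes the counts of members were 0 for snpc-1.2 and 1 for snpc-1.3.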

How the results depend on the processing

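Counts of members called moved with the scaling and other settings, and each stands here with the share of all piRNAs called under that setting in brackets. With equal library sizes they were 184 (66.9%) for wild type by age, 37 (26.7%) for snpc-1.2 at 48 h, 17 (46.3%) for snpc-1.3 at 48 h, 91 (87.4%) and 116 (75.1%) for the double mutant at 48 h and 72 h, 229 (93.1%) and 249 (83.9%) for prg-1, 58 (2.29%) and 136 (7.23%) for mut-16, 22 (0.611%) for hrde-1 at 72 h, and 0 (0%) and 1 (9.61%) for the differences between ages in snpc-1.2 and snpc-1.3. On the scale of total piRNA counts they were 32 (29.2%) and 289 (80.5%) for snpc-1.2 at 48 h and 72 h, 68 (73.2%) for snpc-1.3 at 48 h, and 120 (40.5%) and 14 (36.9%) for the differences. With the compared groups alone, where fewer loci passed the filter, they were 187 (85.1%) for age, 8 (22.6%) for snpc-1.2 at 48 h, 48 (83.4%) for snpc-1.3 at 48 h, 96 (22.5%) for prg-1 at 48 h, 43 (2.32%) and 99 (5.59%) for mut-16, 13 (1.25%) and 22 (1.67%) for hrde-1, and 8 (46.7%) for the difference in snpc-1.3. With limma they were 22 (15.6%) and 326 (73.3%) for snpc-1.2, 57 (53.7%) for snpc-1.3 at 48 h, 450 (81.3%) and 428 (86.9%) for prg-1, 14 (0.257%) and 22 (0.447%) for hrde-1, and 109 (25.1%) and 13 (30.0%) for the differences. With DESeq2 they were 38 (30.6%) and 258 (76.4%) for snpc-1.2, 37 (67.9%) for snpc-1.3 at 48 h, 15 (0.623%) and 21 (0.787%) for hrde-1, and 3 (30.2%) for the difference in snpc-1.3. Without the filter they were 74 (45.5%) for snpc-1.3 at 48 h and 6 (16.6%) for its difference. The cause was not tested. The log2 difference of 21ur-10824 in the double mutant at 72 h was -0.59 with equal library sizes, against 4.22. Of the other settings of the 41 named results, 523 kept the call and 74 lost it. While 0 of 36 shares moved by over 1 SD, leaving out 1 of 3 libraries cannot move their mean that far. That count is therefore no check of the shares.

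Leaving out 1 library gave 276 to 336 members for age, 49 to 64 and 134 to 162 for snpc-1.2 at 48 h and 72 h, 101 to 206 and 1 to 4 for snpc-1.3, 281 to 309 and 254 to 287 for the double mutant, 118 to 148 and 135 to 157 for prg-1, 39 to 120 and 178 to 250 for mut-16, 8 to 20 and 9 to 36 for hrde-1, and 16 to 43 and 20 to 84 for the differences in snpc-1.2 and snpc-1.3. For snpc-1.3 at 72 h the count was 1 without snpc-1.3 replicate 1 or 3 and 4 without wild type replicate 2. The difference in snpc-1.2 gave 19, 16 and 17 without wild type replicate 1, 2 or 3 at 72 h. That in snpc-1.3 gave 20, 63 and 61 without its 48 h replicates 1, 2 or 3, 73, 73 and 62 without its 72 h replicates, and 67, 55 and 84 without those of wild type at 72 h.

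With the replicate block, 77 members (48.9% of all piRNAs) were called in snpc-1.2 at 48 h, 127 (5.43%) in mut-16 at 48 h and 31 (1.28%) in hrde-1 at 48 h, and it moved no count of members by over 1.5 times. No member shares its sequence with another locus, so that alternative changes nothing. The search for upstream motifs and its other window were not run.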
